A study of Sus scrofa with 34 samples.

Results

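The 10 genes described here carry an innate immune signal from the detection of microbes to the rupture of the responding cell. They were TLR2, TLR4 and TLR5, the adaptors and ligases MYD88, TOLLIP, TRAF2 and TRAF6, the pore former GSDMD, the protease CASP1 and the cytokine IL18. They were chosen by gene symbol, and all 10 had a row among the 25880 gene rows of the ileum and liver count tables, of which 14857 have a symbol. Weaned crossbred piglets were fed 1 of 4 diets for 28 days, and polyadenylated RNA from the middle ileum and from the liver was sequenced as stranded libraries. Control pigs ate a basal diet. PFA pigs ate the basal diet with a phytogenic feed additive, a mixture of plant essential oils with synthetic compounds identical to natural ones. Its main ingredients included menthol, carvacrol and the oils of caraway and oregano. OO pigs ate a diet with oxidized rapeseed oil, made by prolonged heating in a fryer to impose an oxidative stress, and OO + PFA pigs ate that diet with the additive. The oxidized oil came on top of the oil of the basal feed, which held far less rapeseed oil and less energy. No diet held as much fresh oil, so the added fat and energy cannot be told apart from the oxidation of the oil. The ileum was sequenced in 5 control and 5 PFA pigs, and the liver in 6 pigs of each of the 4 diets. The study left 1 OO + PFA liver out because of suspected RNA degradation, and it was left out here, so that 23 of 24 liver libraries were compared. Each diet was fed in a single pen, which means that an effect of the pen cannot be told apart from that of the diet, and the error below is the spread between pigs of a pen. A pig is named by its diet and number, as C-71, P-134, OO-130 or OP-79.

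Toll-like receptors sit on the cell surface or in endosomes and bind microbial products, TLR2 lipoproteins with a partner receptor, TLR4 lipopolysaccharide and TLR5 flagellin. Ligand binding recruits MYD88, then IRAK kinases and the ubiquitin ligase TRAF6, which switch on NF-kB, while TOLLIP restrains this relay and TRAF2 serves the parallel route from tumour necrosis factor receptors. In pyroptosis, inflammasomes activate CASP1, which cleaves GSDMD into a membrane pore and matures IL18, a cytokine that gut epithelium makes constantly. In liver, the resident macrophages (Kupffer cells) meet microbial products that arrive from the gut.

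The members differ widely in base composition, and the 3 of highest GC content had the widest spread between libraries in both tissues, so stretches of the coding sequence are shown first. Exon GC content (the share of G and C bases over all annotated exons) was 69.2% for TRAF2, 67.9% for TOLLIP and 66.1% for GSDMD. Of the 13706 annotated genes with a value, 98.1% had a lower GC content than TOLLIP and 95.8% a lower one than GSDMD, TRAF2 ranking higher still, and the median gene had 51.8%. The other members were nearer to the median or below it, with 58.8% for MYD88, 48.4% for TLR2, 47.9% for TLR5, 45.5% for CASP1, 43.7% for TLR4, 43.5% for TRAF6 and 40.5% for IL18. The lines below give 60 bases from the centre of the longest coding exon, 5′ to 3′ on the coding strand of the Sscrofa11.1 pig genome (RefSeq annotation release 106), for the 3 members of highest GC content and then the 3 of lowest. Capitals mark G and C.
TRAF2 (unplaced scaffold, bases 931654 to 931713, minus strand): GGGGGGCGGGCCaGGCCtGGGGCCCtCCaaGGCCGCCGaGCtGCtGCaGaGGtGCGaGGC
TOLLIP (chr2:852273-852332, minus strand): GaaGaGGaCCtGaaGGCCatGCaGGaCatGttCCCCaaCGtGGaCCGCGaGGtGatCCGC
GSDMD (chr4:995958-996017, minus strand): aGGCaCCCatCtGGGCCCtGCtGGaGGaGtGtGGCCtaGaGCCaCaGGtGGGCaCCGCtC
IL18 (chr9:39840125-39840184, minus strand): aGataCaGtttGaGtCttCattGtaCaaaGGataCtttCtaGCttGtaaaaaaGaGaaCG
TRAF6 (chr2:24622044-24622103, plus strand): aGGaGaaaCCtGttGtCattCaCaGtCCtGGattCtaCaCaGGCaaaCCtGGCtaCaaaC
TLR4 (chr1:258052672-258052731, plus strand): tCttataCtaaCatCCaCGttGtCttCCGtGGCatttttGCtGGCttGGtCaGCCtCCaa
G and C made up 80% of the bases in the TRAF2 window, 61.7% in that of TOLLIP and 68.3% in that of GSDMD, against 33.3% in that of IL18 and 46.7% in each of the other windows.

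TRAF2, TOLLIP and GSDMD were also the members for which the study designed quantitative PCR primers, and it picked them in part for their fold changes in these ileum samples. The study measured these genes by quantitative PCR in the same ileum samples. It reports that fold changes by PCR and by sequencing correlated over the ileum genes it chose. Each primer matched once within its gene, in a coding exon, and the primers are given because they mark the part of each transcript that was measured.
TRAF2 forward (bases 930696 to 930715): ttctacacgagcaggtacgg
TRAF2 reverse (bases 929660 to 929679): ttctggtccagcagcatcag
TOLLIP forward (chr2:857293-857312): gcaacagcaacagcagatcc
TOLLIP reverse (chr2:855551-855570): ggtcacgccgtagttcttcg
GSDMD forward (chr4:998573-998592): gacgccatgcaccttgaaag
GSDMD reverse (chr4:997889-997907): cacctccttctgcgtctgg
Because of that choice, the direction of these 3 genes in the ileum is not independent evidence of an effect of PFA.

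The genes lie at separate places in the genome. TLR2 (ENSSSCG00000009002) spans chr8:75416257-75428370, TLR4 (ENSSSCG00000005503) chr1:258044610-258054641 and TLR5 (ENSSSCG00000010885) chr10:19387666-19410024. MYD88 (ENSSSCG00000011251) spans chr13:22976951-22979568 and overlaps ACAA1, a peroxisomal thiolase gene, on the opposite strand. TOLLIP (ENSSSCG00000033033) spans chr2:852198-864337, TRAF6 (ENSSSCG00000038082) chr2:24602749-24628263 and TRAF2 (ENSSSCG00000005838) bases 928523 to 946482 of an unplaced scaffold. GSDMD (ENSSSCG00000006955) spans chr4:995753-1001964, CASP1 (ENSSSCG00000028711) chr9:35188066-35199364 and IL18 (ENSSSCG00000015037) chr9:39839959-39861258. Whether reads of MYD88 and ACAA1 were separated by strand depends on the counting option, which is not given in the sources used here.

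Levels are given as CPM, the count of a gene scaled to a library of 1000000 counts, with library sizes adjusted by the trimmed mean of M values (TMM). The ileum libraries held 18772230 to 24338165 gene counts and the liver libraries 18738055 to 42446834. Hepatocyte markers summed to between 77044 and 184042 CPM in the compared liver libraries and to at most 4932 CPM in the ileum, where TTR was at 0 in every pig. Intestinal epithelium markers summed to between 9018 and 12505 CPM in the ileum and to at most 1328 CPM in the liver. The ileum of C-80 stood apart from the other 9, with B cell markers at 659.7 CPM against 11.7 to 27.3 CPM. The same library had the lowest ileal TLR5, MYD88 and CASP1, and the part of its lymphoid content in those levels was not tested. In whole tissue, fewer cells of a type and less RNA per cell cannot be told apart.

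**Figure D1:**
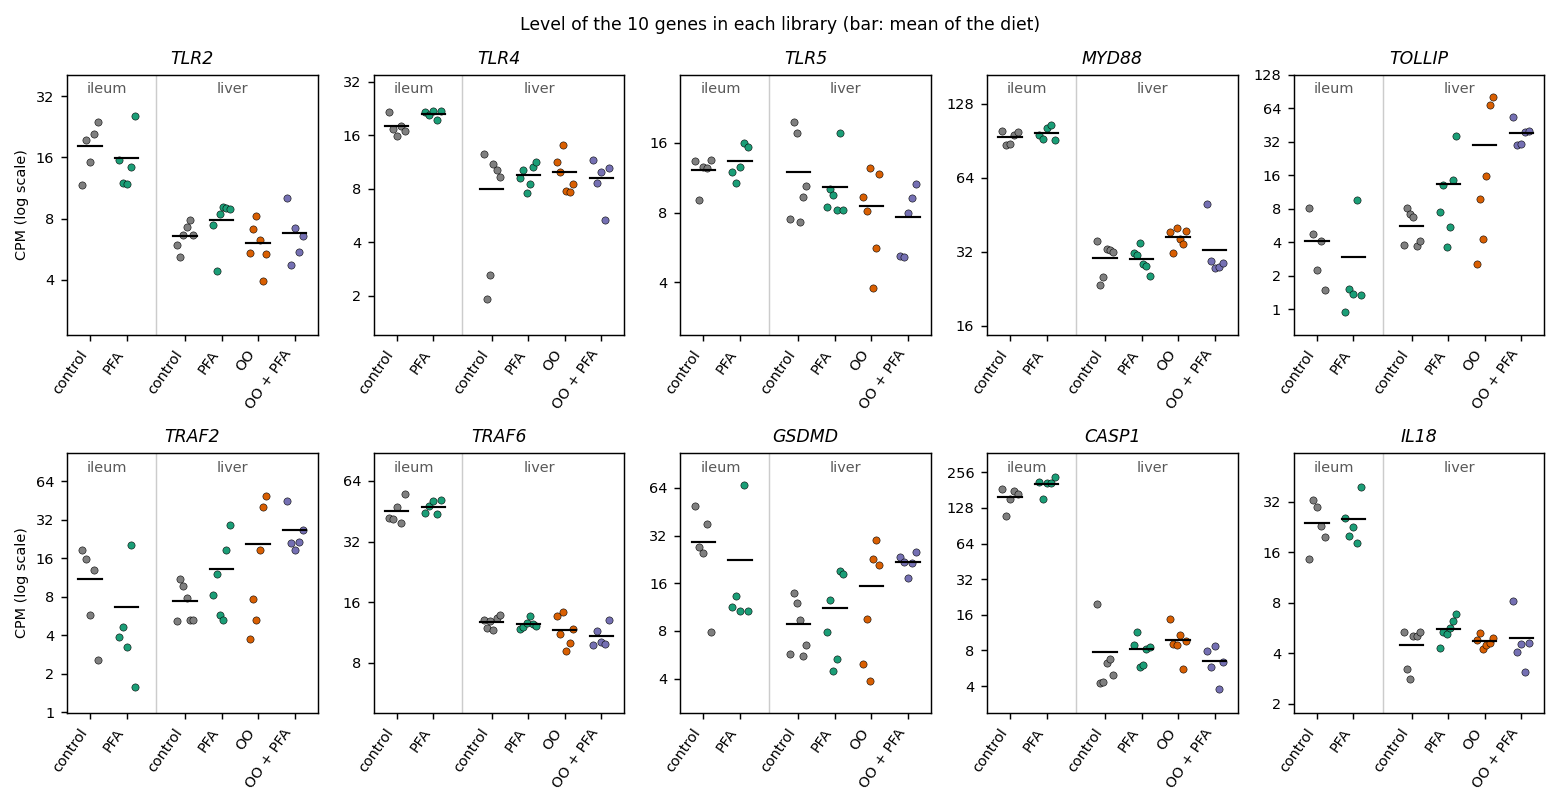
Level of each of the 10 genes in CPM (log2 axis) in every compared library of ileum and liver, by diet, with a point for each pig and a bar for the diet mean. TOLLIP, TRAF2 and GSDMD spread widely within a diet, up to 80.2 CPM for TOLLIP in OO-130 and down to 0.95 CPM in the ileum of P-75, while MYD88 in the ileum stayed between 87.4 and 105.4 CPM.

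The additive was compared with the control diet in the ileum first, the comparison the study made to see what PFA does in the intestine under normal conditions. With edgeR's quasi-likelihood test and Benjamini-Hochberg adjustment over 14300 genes (two-sided, a gene being called where its adjusted p did not exceed 0.05), 0 of the 10 members were called, and the share called among all genes was 0%. At an unadjusted p under 0.05 stood 1 member and 401 genes in all, and DESeq2 called 0 members and 5 genes. The median log2 fold change of the members was 0.06, against 0.02 over all genes tested.

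Among the receptors, TLR4 measured 21.6, 17.5, 15.8, 18.0 and 17.0 CPM in the ileum of C-71, C-80, C-92, C-100 and C-110. In PFA pigs TLR4 measured 21.6, 20.8, 22.0, 19.6 and 22.0 CPM in P-75, P-95, P-107, P-134 and P-138. All PFA pigs lay above 4 of the 5 control pigs, and the groups overlapped through C-71. The log2 fold change of TLR4 was 0.24 (SE 0.12, unadjusted p = 0.0626, adjusted p = 0.991 by edgeR). TLR5 had 12.2 ± 1.82 CPM (SD, n = 5) in control and 13.3 ± 2.23 CPM (n = 5) in PFA ileum, and TLR2 18.2 ± 4.80 and 15.8 ± 5.64 CPM, differences within the spread between pigs.

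CASP1, the inflammasome protease, measured 184.8, 109.3, 153.1, 177.3 and 167.6 CPM in the 5 control pigs in the order above. In the 5 PFA pigs CASP1 measured 213.4, 152.9, 206.3, 208.4 and 234.0 CPM. Of the PFA pigs, 4 lay above every control pig and P-95 lay among them, while the B cell rich C-80 was the lowest of all. Its log2 fold change was 0.36 (SE 0.16, unadjusted p = 0.0408, adjusted p = 0.991), and 0.25 without C-80 (unadjusted p = 0.082). IL18 had 23.98 ± 7.45 CPM in control and 25.2 ± 8.37 CPM in PFA ileum, MYD88 93.9 ± 5.76 and 97.3 ± 6.16 CPM, and TRAF6 45.2 ± 6.29 and 47.7 ± 3.39 CPM (SD, n = 5 each). The MYD88 groups overlapped almost completely, and the SD of its log2 level within a diet, 0.09, was smaller in only 1.17% of the 13483 ileum genes at 1 CPM or more.

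GSDMD, the pore former, measured 48.9, 27.2, 24.7, 37.6 and 7.89 CPM in the control ileum. In the PFA ileum it measured 11.4, 13.3, 10.8, 66.5 and 10.7 CPM. P-134 was the highest of all 10 pigs, whereas the other PFA pigs lay below 4 of the 5 controls. TRAF2 had the same pattern, with 18.4, 15.6, 5.73, 12.9 and 2.58 CPM in control and 3.88, 4.67, 3.24, 20.1 and 1.57 CPM in PFA pigs. So did TOLLIP, with 8.08, 4.80, 2.26, 4.12 and 1.502 CPM in control and 0.95, 1.51, 1.37, 9.68 and 1.36 CPM in PFA pigs, from 19 to 235 counts per library. The log2 fold changes were -0.37 (SE 0.59) for GSDMD, -0.72 (SE 0.67) for TRAF2 and -0.47 (SE 0.67) for TOLLIP. Without P-134 they were -1.34, -1.72 and -1.68, so this 1 library moved each value by more than 1.5 times, and none of the 3 was called without it.

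The same 3 genes followed the GC slope of the library, the change in log2 level per 10 percentage points of exon GC content relative to the tissue mean, fitted over 11333 genes in the ileum and 11015 in the liver. A library with a positive slope holds relatively more reads from GC-rich genes. The slope is set in part by genes of like GC content, so any GC-rich gene should tend to follow it. The p-values below therefore do not set these 3 genes apart from other GC-rich genes, for which no r is given here. The slope ran from -0.37 in P-138 to 0.37 in P-134 in the ileum and from -0.47 in P-95 to 0.49 in OP-79 in the liver. Taken as deviations from the diet mean, TRAF2 correlated with the slope at r = 0.98 and rho = 0.95 in the ileum (n = 10, permutation p = 2e-05, adjusted p = 1e-04 over 20 relations). It was followed by GSDMD at r = 0.94 and rho = 0.96 (permutation p = 3e-05, adjusted p = 0.00012) and by TOLLIP at r = 0.91 and rho = 0.94 (permutation p = 0.00012, adjusted p = 0.0004). In the liver (n = 23) r was 0.93, 0.92 and 0.91 and rho 0.96, 0.91 and 0.92 for TRAF2, GSDMD and TOLLIP, each with a permutation p of 1e-05, the smallest the permutations can give, and an adjusted p of 6.67e-05. Without the 2 libraries of most extreme slope these 6 values of r lay between 0.76 and 0.96.

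TRAF6, of low GC content, ran the other way, with r = -0.74 and rho = -0.84 in the ileum (permutation p = 0.0152, adjusted p = 0.0379) and r = -0.62 and rho = -0.56 in the liver (permutation p = 0.0015, adjusted p = 0.00429), or -0.67 and -0.48 without the 2 most extreme libraries. For TLR2, TLR4, TLR5, MYD88, CASP1 and IL18 the relation did not pass in either tissue, with adjusted p of at least 0.206. The members themselves were left out of the genes that set the slope.

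**Figure D2:**
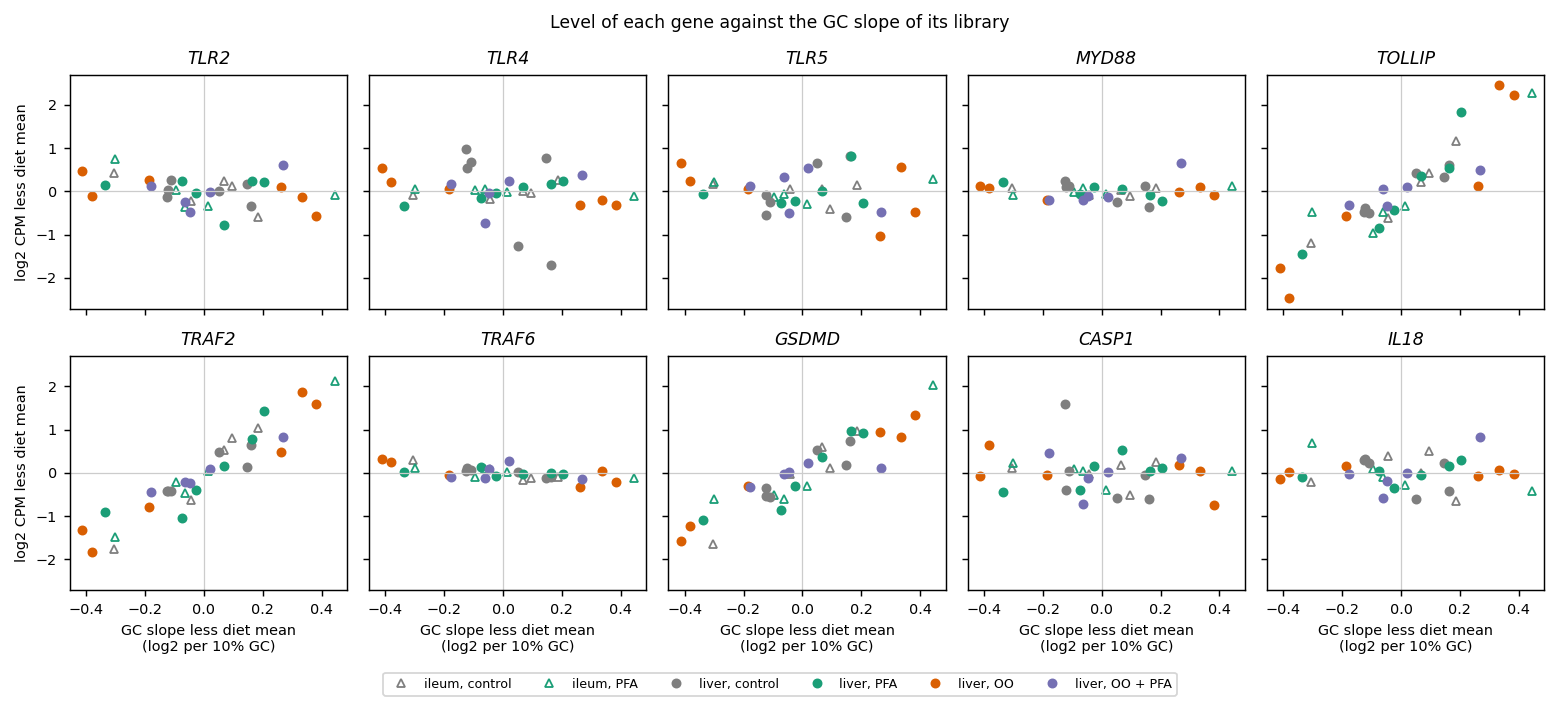
Level of each gene (log2 CPM, deviation from the diet mean) against the GC slope of the library (log2 per 10 percentage points of GC, deviation from the diet mean), with triangles for the 10 ileum and circles for the 23 liver libraries. TOLLIP, TRAF2 and GSDMD rise along a line in both tissues (r between 0.91 and 0.98), TRAF6 falls, and the other 6 genes form clouds.

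The spread of the 3 GC-rich members was among the widest in each tissue. From the lowest to the highest library, TRAF2 spanned 12.8-fold, TOLLIP 10.2-fold and GSDMD 8.43-fold in the ileum, and TOLLIP 31.2-fold, TRAF2 13.2-fold and GSDMD 7.70-fold in the liver. The SD of the log2 level within a diet was 1.25, 1.12 and 1.07 for TRAF2, TOLLIP and GSDMD in the ileum, larger than that of 99.2%, 98.7% and 98.5% of genes. When each library was corrected by a smooth curve over GC content, these SDs were 0.61, 0.59 and 0.59. In the liver they went from 1.00 to 0.37 for TRAF2, from 1.24 to 0.68 for TOLLIP and from 0.83 to 0.38 for GSDMD.

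Pairs of members were compared as well. Among TOLLIP, TRAF2 and GSDMD, r of the log2 level lay between 0.90 and 0.94 over the 10 ileum libraries and between 0.89 and 0.97 over the 23 liver libraries, and between 0.63 and 0.79 and between 0.53 and 0.87 after the GC correction. Pairs of the other 7 members had a median r of 0.14 in the ileum and 0.30 in the liver. All points of such a correlation share the library, its depth and its base composition, so the values are a description. Of all genes tested, those most like TOLLIP in the liver were CTBP1, EPN1 and COL18A1 (r = 0.99, 0.98 and 0.98, exon GC content 65.1% to 71.1%), and those most like TRAF2 were CLDN3, EPN1 and ZGPAT (r = 0.99, 0.99 and 0.98, GC content 68.7% to 69.4%). For TLR4 in the liver the most similar gene was VSIG4, a complement receptor of Kupffer cells, with r = 0.98. For CASP1 in the liver the first was ANXA1 (r = 0.89), a regulator of inflammation, and the second AIF1 (r = 0.88), a macrophage marker. The gene most like TLR5 in the liver was PTPRD (r = 0.91), and the next was ONECUT1, a hepatocyte transcription factor (r = 0.89).

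**Figure D3:**
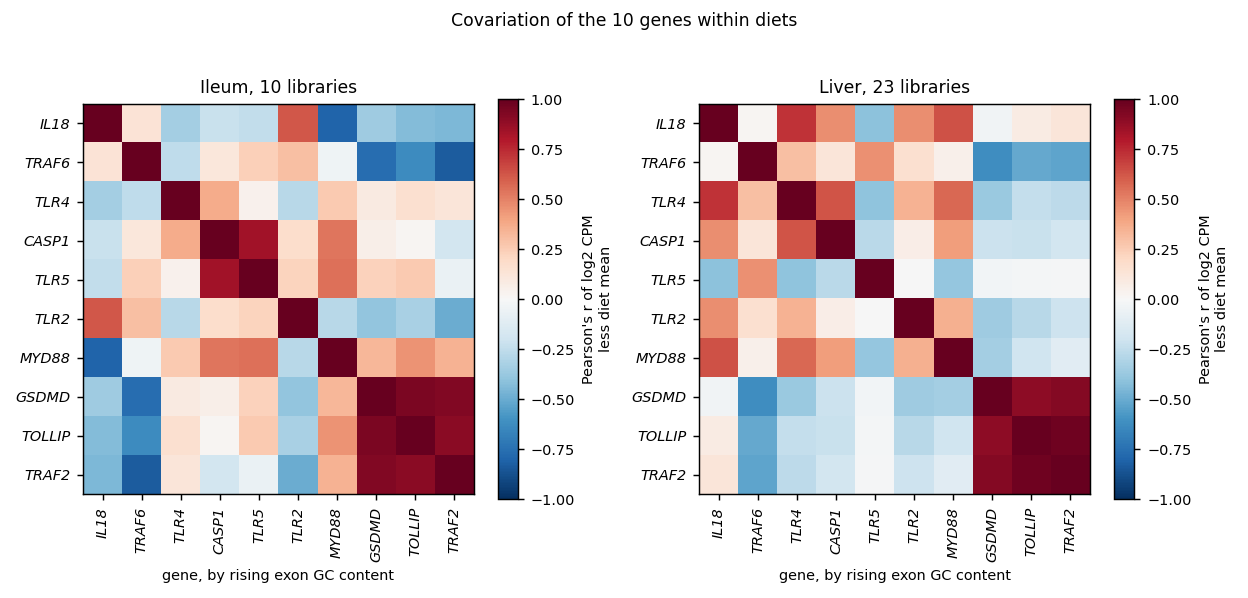
Pearson's r of the log2 level (deviation from the diet mean) for each pair of the 10 genes, ordered by exon GC content, in the 10 ileum and the 23 liver libraries, with colour from -1 to 1. The block of TOLLIP, TRAF2 and GSDMD stands out in both tissues, with r between 0.89 and 0.97.

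In the liver the 4 diets were compared together, as the study did, and then by contrast, to ask what oxidized oil and PFA each do and whether PFA alters the response to the oil. Across the 4 diets 0 of the 10 members were called, where 3.66% of 13831 genes were (edgeR, Benjamini-Hochberg). At an unadjusted p under 0.05 stood 3 members (TOLLIP, TRAF2 and GSDMD) and 3483 genes in all, and DESeq2 called TOLLIP alone among the members. TOLLIP missed the threshold with an adjusted p of 0.0530, TRAF2 had 0.116 and GSDMD 0.176, and the other 7 members lay between 0.343 (MYD88) and 0.848 (TLR4). After the GC correction TOLLIP passed with an adjusted p of 0.0326, where 7.28% of genes were called, and over the alternatives its adjusted p ran from 0.00799 to 0.0628.

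PFA against control in the liver called 0 of 10 members and 0% of all genes, with 0 members and 1522 genes at an unadjusted p under 0.05, while DESeq2 called 0 members and 37 genes. TLR4 measured 7.95 ± 4.54 CPM (SD, n = 6) in control and 9.603 ± 1.404 CPM (n = 6) in PFA livers, and in the widely spread control group C-80 and C-85 lay at 1.93 and 2.61 CPM against 9.3 to 12.6 CPM in the other 4 controls. The same 2 livers had the lowest sums of 12 macrophage and Kupffer cell markers of the compared livers, 562.6 and 555.6 CPM in a range that reached 2282 CPM, and the part of this in the TLR4 level was not tested. CASP1 measured between 4.27 and 19.7 CPM in control livers, with C-71 far above the next control at 6.73 CPM, and between 5.81 and 11.5 CPM in PFA livers. The log2 fold changes of the receptors were 0.25 for TLR2, 0.28 for TLR4 and -0.21 for TLR5, with SEs of 0.20, 0.33 and 0.30. TOLLIP had the smallest p of the 10, with a log2 fold change of 1.24 (SE 0.64, unadjusted p = 0.065, adjusted p = 0.474). The other values were 0.83 for TRAF2, 0.34 for GSDMD, 0.32 for IL18, 0.098 for CASP1, -0.036 for TRAF6 and -0.018 for MYD88.

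Oxidized oil against control called 1 of 10 members, TOLLIP, where 2.71% of all genes were called. TOLLIP measured 3.74 at the lowest, 5.46 at the median and 8.16 CPM at the highest in control livers (n = 6). In OO livers it measured 2.57, 12.8 and 80.2 CPM (n = 6), with OO-102 at 68.5 and OO-130 at 80.2 CPM far above the next OO liver at 15.9 CPM. The OO livers thus lay on both sides of the controls, and OO-74 was the lowest of all 23. The log2 fold change was 2.41 (SE 0.66, 5.32-fold, adjusted p = 0.0494 by edgeR), and over the alternatives the adjusted p ran from 0.00846 to 0.128. The call stood in 3 of the 12 fits that left out 1 pig (OO-74, OO-88 or OO-97), and the log2 fold change was 1.83 without OO-130 and 1.98 without OO-102. After the GC correction it was 1.34 (adjusted p = 0.0323, with 7.35% of genes called).

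TRAF2, the ligase of the tumour necrosis factor receptor route, ran from 5.20 through a median of 6.50 to 10.99 CPM in control livers and from 3.70 through 13.1 to 49.0 CPM in OO livers. GSDMD ran from 5.57 through 7.99 to 13.9 CPM in control and from 3.87 through 15.2 to 29.8 CPM in OO livers. For both, the OO group reached below and above the whole control group. The log2 fold changes of 1.49 for TRAF2 (SE 0.53, adjusted p = 0.112) and 0.78 for GSDMD (SE 0.43, adjusted p = 0.293) were not called, although TRAF2 passed without OO-74 (1.71, adjusted p = 0.0454) or OO-97 (1.69, adjusted p = 0.0423). CASP1 had 7.71 ± 5.97 CPM in control and 9.77 ± 2.95 CPM in OO livers (SD, n = 6 each), with a log2 fold change of 0.35 (SE 0.32, adjusted p = 0.552) that came to 0.88 (adjusted p = 0.0473) without C-71. TLR5 had 11.98 ± 5.33 CPM in control and 8.52 ± 3.39 CPM in OO livers, within the spread between pigs. TLR4 had 7.95 ± 4.54 CPM in control and 9.92 ± 2.51 CPM in OO livers, with a log2 fold change of 0.32 (SE 0.33, adjusted p = 0.596). Over the 23 livers TLR4 ran from 1.93 to 14.2 CPM, a 7.36-fold span. The log2 fold changes of MYD88, TLR2, TRAF6 and IL18 were 0.28, -0.12, -0.13 and 0.073. These 4 spanned less over the 23 livers, TRAF6 between 9.13 and 14.4 CPM, MYD88 between 23.4 and 49.96 CPM, TLR2 between 3.95 and 10.1 CPM and IL18 between 2.80 and 8.24 CPM.

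Oxidized oil was also compared in pigs that ate the additive. OO + PFA against PFA called 0 of 10 members, with 1.58% of genes called. At an unadjusted p under 0.05 stood 2 members and 3248 genes in all (23.5%), and DESeq2 called 0 members and 688 genes. TOLLIP measured 53.1, 30.0, 30.3, 39.4 and 40.2 CPM in OP-79, OP-98, OP-105, OP-126 and OP-137, and from 3.66 to 35.9 CPM with a median of 10.2 in PFA livers. All OO + PFA livers lay above 5 of the 6 PFA livers, and the groups overlapped through P-138. Its log2 fold change was 1.53 (SE 0.66, adjusted p = 0.170). TRAF2 measured 44.6, 21.2, 18.5, 21.5 and 26.5 CPM in the OO + PFA livers against 5.21 to 29.0 CPM in PFA livers, with a log2 fold change of 1.01 (SE 0.54, adjusted p = 0.254). GSDMD measured 23.4, 21.9, 17.2, 21.4 and 25.2 CPM against 4.46 to 19.0 CPM, with 0.96 (SE 0.44, adjusted p = 0.196). The OO + PFA livers lay at the upper end for both genes and overlapped the PFA livers in each. The receptors had log2 fold changes of -0.21 (TLR2), -0.058 (TLR4) and -0.44 (TLR5), and MYD88, TRAF6, CASP1 and IL18 had 0.13, -0.20, -0.34 and -0.19, none called. The GC slope was positive in all 5 OO + PFA livers, from 0.04 to 0.49, and lay between -0.47 and 0.07 in PFA livers, between -0.20 and 0.08 in control livers and between -0.38 and 0.42 in OO livers.

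Pooled over both levels of PFA, oxidized oil called 2 of 10 members, TOLLIP and TRAF2, both higher, where 11.8% of all genes were called. Among the 400 other tested genes with at least the GC content of GSDMD, the share called was 56.8%. TOLLIP was 3.92-fold higher (log2 fold change 1.97, SE 0.46, adjusted p = 0.0108) and TRAF2 2.37-fold higher (1.25, SE 0.38, adjusted p = 0.0342), both by edgeR's quasi-likelihood test. GSDMD was 1.83-fold higher without passing (0.87, SE 0.31, adjusted p = 0.0665). TLR5 lay 1.38-fold lower (-0.46, SE 0.22, adjusted p = 0.166), and MYD88 (0.20), TRAF6 (-0.16), TLR2 (-0.16), TLR4 (0.13), IL18 (-0.06) and CASP1 (0.01) were not called. After the GC correction, where 9.66% of genes and 16.5% of those 400 GC-rich genes were called, TOLLIP stayed called at 1.06 (SE 0.26, adjusted p = 0.0130). TRAF2 came to 0.27 (SE 0.15, adjusted p = 0.280) and GSDMD to 0.21 (SE 0.15, adjusted p = 0.413). Over the alternatives the adjusted p ran from 0.00104 to 0.0151 for TOLLIP, from 0.0166 to 0.280 for TRAF2 and from 0.0334 to 0.413 for GSDMD. TOLLIP stayed called in all 23 fits that left out 1 pig, TRAF2 in 13 of them and GSDMD passed in 5 of them. GSDMD also passed by DESeq2 (0.85, adjusted p = 0.0374) and with all 24 livers (0.98, adjusted p = 0.0334). ACAA1, which overlaps MYD88 on the other strand, rose with the oil (log2 fold change 0.78, adjusted p = 3.77e-05).

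Markers of cell types were read in the same contrast. All 3 tested neutrophil markers had a log2 fold change above 0 (median 0.69) and none was called. Of the 12 macrophage and Kupffer cell markers 9 had a value above 0 and 3 below (median 0.18), with 1 called. Of the 7 hepatocyte markers 5 had a value below 0 and 2 above (median -0.26), with 2 called. The macrophage and Kupffer cell markers summed to 555.6 to 1756 CPM in control, 593.3 to 1805 CPM in PFA, 1211 to 1786 CPM in OO and 1044 to 2282 CPM in OO + PFA livers. The neutrophil sums had medians of 5.05 CPM in control, 3.73 CPM in PFA, 6.17 CPM in OO and 3.14 CPM in OO + PFA livers. They were at most 8.42 CPM in the livers without oil. With oil they reached 15.8 CPM in OO livers and 19.5 CPM in OP-79, the other compared OO + PFA livers having 2.36 to 3.74 CPM. Hepatocyte sums were 77044 to 184042 CPM without oil and 85671 to 127506 CPM with it. The part of these cell types in the member levels was not tested.

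Genes of similar GC content shifted as a body in this contrast. The 400 other tested genes with at least 66.1% GC, the value of GSDMD, had a median log2 fold change of 0.91 with quartiles of 0.63 and 1.23, and 99.3% of them were higher with oxidized oil. GSDMD, at 0.87, lay between these quartiles, TRAF2, at 1.25, close to the upper one and TOLLIP, at 1.97, above them. After the correction the median of these genes was 0.12 with quartiles of -0.11 and 0.34, and TOLLIP at 1.06 again lay above them. In the ileum, PFA against control, 374 such genes had a median of -0.30, 9.09% of them being higher, and -0.02 after the correction.

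**Figure D4:**
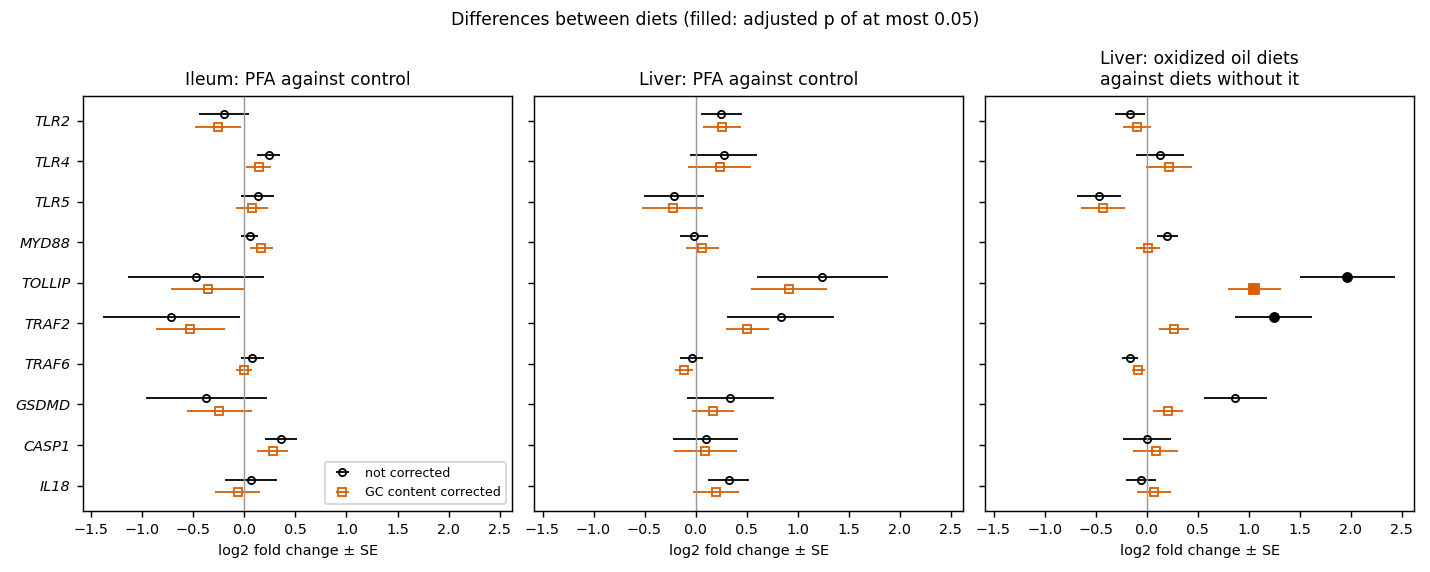
Log2 fold change with its SE for each of the 10 genes in 3 comparisons (ileum PFA against control, liver PFA against control, liver pooled oxidized oil), before (black) and after (orange) the GC correction, filled where called. With pooled oil TOLLIP is filled at 1.97 and at 1.06, whereas TRAF2 is filled at 1.25 and open at 0.27.

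The additive on top of the oil, OO + PFA against OO, called 0 of 10 members and 0% of genes, with 0 members and 1176 genes at an unadjusted p under 0.05, and DESeq2 called 0 members and 31 genes. The strongest of the 10 was CASP1, with 9.77 ± 2.95 CPM (SD, n = 6) in OO and 6.48 ± 1.91 CPM (n = 5) in OO + PFA livers and a log2 fold change of -0.59 (SE 0.34, unadjusted p = 0.0947). GSDMD (0.52), TOLLIP (0.36), TRAF2 (0.36), TLR2 (0.17) and IL18 (0.065) had values above 0, and MYD88 (-0.17), TLR5 (-0.16), TLR4 (-0.11) and TRAF6 (-0.10) below. The interaction of oil and PFA, which asks whether the oil effect differs with the additive, also called 0 of 10 members and 0% of genes, with 0 members and 1881 genes at an unadjusted p under 0.05, and DESeq2 called 0 members and 161 genes. The difference of log2 fold changes was -0.88 for TOLLIP (SE 0.91), -0.69 for CASP1 (SE 0.46), -0.48 for TRAF2 (SE 0.75) and -0.38 for TLR4 (SE 0.47), and lay between -0.26 (IL18) and 0.17 (GSDMD) for the other 6.

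Of the pathway's other genes, taken from 6 lists by role, none was called in the ileum, where the medians of the lists lay between -0.09 and 0.09, against 0.02 over all genes. At an unadjusted p under 0.05 stood 2 of them, the chaperone HSP90B1 (0.36, unadjusted p = 0.0242 by edgeR) and the receptor TLR8 (0.53, unadjusted p = 0.0329), both higher with PFA. Of all genes tested in the ileum, 2.8% stood at such a p. Both genes belong to the list of Toll-like receptors and co-receptors, in which 3 of 14 genes were higher and 11 lower (median -0.09). None was called in the liver across the 4 diets or between single diets. With pooled oil, 5 of 23 adaptors and kinases from receptor to NF-kB were called, 4 of them higher, beside 11.8% of all genes, of which 1238 were higher and 392 lower. The list's median log2 fold change was 0.10 against 0.01 over all genes. IRAK1, the kinase that follows MYD88, was higher by 0.89 (adjusted p = 0.0285) and came to 0.13 after the GC correction. TAB1, a partner of the kinase TAK1, was higher by 0.72, RBCK1, a subunit of the linear ubiquitin ligase, by 0.54, and TAB3, another partner, was lower by a log2 fold change of -0.46. After the GC correction TAB1 came to 0.25 (adjusted p = 0.0689) and RBCK1 to -0.015 (adjusted p = 0.911), neither called, while TAB3 stayed called at -0.38 (adjusted p = 0.039). In the list of inflammasome genes 3 of 9 tested were called, 1 higher and 2 lower, beside the 11.8% of all genes. Of those named here, the NLRP3 partner NEK7 (-0.31) was lower and the adaptor CARD9 (1.25) higher. CARD9 was low, with a mean of 0.93 CPM in control and 4.17 CPM in OO + PFA livers. Neither gene was called after the correction (-0.22 and 0.41, adjusted p = 0.0764 and 0.279). None of 13 Toll-like receptors and co-receptors and none of 10 brakes passed. CD14, the co-receptor of TLR4, came nearest with 0.96 (adjusted p = 0.0509), and 0.41 after the correction.

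Both tissues were sequenced in 10 pigs, which allowed the members to be compared between ileum and liver of the same animals, on a joint CPM scale. No form of library title was shared by the tissues, so a difference in handling that went with the tissue cannot be told apart from it. Of the 10 members 7 were called, where 78.1% of 14982 genes were. CASP1 was 10.1-fold higher in the ileum (log2 fold change 3.34, SE 0.24, adjusted p = 3.56e-11 by edgeR), and IL18 2.15-fold (1.10, SE 0.16, adjusted p = 2.64e-06). TRAF6 was 1.70-fold higher (0.76, SE 0.07) and MYD88 1.46-fold (0.54, SE 0.08). Each of these 4 was higher in the ileum in 10 of 10 pigs.

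On the joint scale TLR5, the flagellin receptor, was 1.83-fold lower in the ileum (-0.87, SE 0.18, adjusted p = 0.000168 by edgeR), at 6.25 to 10.7 CPM against 10.8 to 28.6 CPM in the liver, without overlap and in 10 of 10 pigs. TOLLIP was 5.34-fold lower (-2.42, SE 0.46), in 10 of 10 pigs, and TRAF2 2.46-fold lower (-1.30, SE 0.43, adjusted p = 0.00904), in 8 of 10 pigs. Scaled within each tissue alone, TLR5 averaged 12.2 CPM in control ileum and 11.98 CPM in all control livers, and 13.3 and 10.4 CPM with PFA. TRAF2 then averaged 11.04 and 7.36 CPM with the control diet, and 6.69 and 13.1 CPM with PFA. The direction of TLR5 thus rests on the joint scale, and so does that of TRAF2 in control pigs. TLR2 (0.12, SE 0.17), TLR4 (-0.05, SE 0.20) and GSDMD (0.27, SE 0.38) were not called. After the GC correction, where 80.8% of genes were called, the same 7 passed, and so did GSDMD at 0.69 (adjusted p = 0.00437), whose adjusted p ran from 0.00320 to 0.804 over the alternatives.

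**Figure D5:**
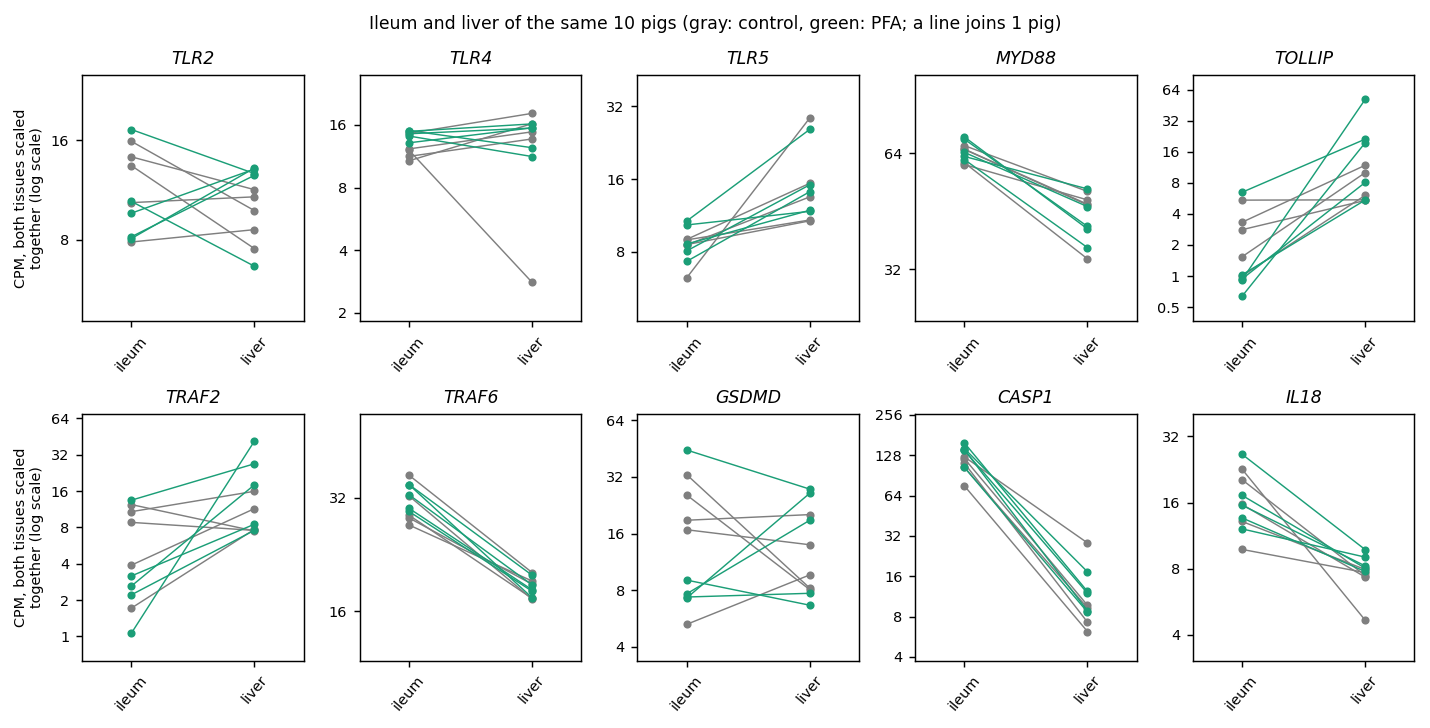
Level of each of the 10 genes in ileum and liver of the same 10 pigs (CPM on the joint scale, log2 axis, with its own axis for each gene), with a line for each pig. Every line falls from ileum to liver for CASP1, IL18, TRAF6 and MYD88 and rises for TLR5 and TOLLIP.

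Of the pathway's other genes, 9 of 14 Toll-like receptors and co-receptors, 18 of 23 adaptors and kinases, 7 of 10 brakes, 7 of 10 inflammasome genes, 3 of 3 gasdermins and 7 of 8 genes of the interleukin 1 family were called between the tissues, beside the 78.1% of all genes. CD14 was 302.4-fold lower in the ileum (log2 fold change -8.24, SE 0.38). CASP8, an initiator caspase, was 3.93-fold and the gasdermin GSDMB 16.9-fold higher in the ileum. The inflammasome sensor NLRP6 measured 49.3 to 139.7 CPM in the ileum, on the scale of that tissue alone. NOD1, a sensor of bacterial cell wall fragments, was 8.55-fold and the brake IRAK3 4.08-fold lower. IL18R1, which binds IL18, was 12.7-fold higher in the ileum, whereas IL1R1 was 25.03-fold lower.

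The PFA effect was then compared between the tissues, which called 0 of 10 members and 0% of genes, with 2 members and 739 genes at an unadjusted p under 0.05 and none by DESeq2. These 2 were TOLLIP (difference of log2 fold changes, ileum minus liver, -1.93, SE 0.89) and TRAF2 (-1.77, SE 0.85), each with an adjusted p of 0.976. For the other 8 the difference lay between -0.93 (GSDMD) and 0.39 (CASP1). Whether a pig high for a member in the ileum was also high in the liver was asked by correlating the deviations from the diet mean over the 10 pigs. No member passed among the 10 relations. The closest was CASP1, with r = 0.62 (permutation p = 0.0571, adjusted p = 0.571) and rho = 0.71 (permutation p = 0.0263, adjusted p = 0.263), and r = 0.57 without the 2 pigs farthest from the median. For TOLLIP, TRAF2 and GSDMD r was 0.08, 0.06 and 0.27 (adjusted p = 0.904, 0.904 and 0.744). The GC slopes of a pig's ileum and liver libraries were likewise not aligned, with r = 0.06 and rho = -0.03 (permutation p = 0.871 and 0.947), and r = -0.44 without the 2 farthest pigs.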

How the data were processed

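The authors aligned read pairs to Sscrofa11.1 with STAR 2.6.1d and counted them per gene with HTSeq (the labels also name DESeq2 1.22.2). The strand option and the annotation release of the counting are not given in the sources used here. The deposited values are raw counts per Ensembl gene, 1 table for ileum (10 libraries) and 1 for liver (24 libraries). HTSeq's own summary lines, such as read pairs on no gene (7.54 to 27.9 per 100 pairs on genes), name no gene and were kept out of library sizes and tests. Libraries were grouped by the diet and tissue in the labels. The members and the pathway lists were chosen with earlier results of these data known. By the rule for named genes all 10 members are covered in every comparison, singly or by a range, and genes of a list are named only from the 4 called ones of smallest p or, where none was called, the 2 of smallest p. Likeness to a member is Pearson's r of log2 CPM less the diet mean, with the first 3 genes taken.

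Genes were kept with filterByExpr, scaled by TMM and tested with edgeR 4.0.16 (quasi-likelihood F-test, R 4.3.3, limma 3.58.1), with Benjamini-Hochberg adjustment over all genes tested and a threshold of 0.05, SEs being the log2 fold change divided by the root of its F statistic. Liver contrasts came from 1 fit of 23 libraries, the tissues from 1 fit of 20. Contrasts share libraries in part. The log2 CPM values used a prior count of 2, and sums of cell type markers were scaled by library totals without TMM. The test code was tested on simulated data. DESeq2 1.42.0, its size factors, other filters, a fold threshold, a covariate for how the library titles were written, all 24 livers, the pig as a block and fits without each pig were alternatives. Correlations used 100000 permutations (Python 3.11.15, numpy 2.4.6, pandas 2.3.3, figures with matplotlib 3.10.9). Intervals and SEs reflect the spread between pigs.

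GC content came from RefSeq exons of Sscrofa11.1, matched by symbol, and each library was corrected by a lowess curve of level on GC content with a span of 0.5. Only 79.3% of the tested ileum genes and 79.7% of the liver genes had a GC value, so the counts over all genes after the correction are void as a check of all genes, while all 10 members had a value. Ileum and liver libraries with the same pig number come from the same animal by the labels. Over 13058 genes, their deviations from the group means correlated at -0.25 to 0.54 (median 0.15) between the tissues of a pig, against a median of -0.04 between different pigs. Only 4 of the 10 ileum libraries were most like the liver library of the same pig. One gene of the inflammasome list is not reported here by name.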

Additional observations from a re-analysis of the deposited data

Results flagged for a closer look

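Within each group of 5 or 6 pigs the highest and the lowest level of each member were compared with the other pigs, in 60 groups of values, and chance flags about 1 in 20 groups. In the PFA ileum, P-134 stood far above the other pigs in TOLLIP (9.68 CPM, next 1.51), TRAF2 (20.1 CPM, next 4.67) and GSDMD (66.5 CPM, next 13.3), in the library with the highest ileal GC slope. P-138 stood above the others in TLR2 in the same group (25.5 CPM, next 15.5), in the library with the lowest ileal slope. In the control ileum, C-80 stood below the others in TLR5 (9.03 CPM, next 12.5), the library with the high B cell markers.

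In PFA livers, P-75 was low in TLR2 (4.41 CPM, next 7.42), P-134 was high in TLR5 (17.7 CPM, next 10.1) and P-138 was high in TOLLIP (35.9 CPM, next 14.6), the last in the PFA liver of highest slope. C-71 was high in CASP1 among the control livers (19.7 CPM, next 6.73). OP-79 was high in MYD88 among the OO + PFA livers (49.96 CPM, next 29.3), and it had the highest slope of the 23 compared livers.

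The OO + PFA liver left out of the comparisons, OP-77, lay above every control liver in TOLLIP (47.6 CPM against at most 8.06), TRAF2 (66.6 CPM against at most 10.9) and GSDMD (43.3 CPM against at most 13.7), on the scale of all 24 livers. The part of the GC slope, of cell content and of RNA quality in these levels was not tested.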

How the results depend on the processing

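The direction of most member values was kept. Of 2020 log2 fold changes refitted under another setting, 80 turned sign, over 26 results whose largest turned value was 0.295 in size, and none of these was called. TOLLIP under pooled oil stayed called under every alternative and without each pig. The calls across the 4 diets, for TOLLIP with OO against control, and for TRAF2 and GSDMD under pooled oil rested on single settings or pigs. The cause was not tested. Depth limits TOLLIP in the ileum, where it had 19 to 235 counts per library.

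Members called across the 4 diets numbered 1 (TOLLIP) in place of 0 after the GC correction, among genes with a GC value, by DESeq2 and with all 24 livers corrected, 2 with all 24 livers, and 0 to 1 without 1 pig. With OO against control there were 0 in place of 1 without a filter, with all 24 livers, with a term for the library title and with the 2 diets alone, where TOLLIP had an adjusted p of 0.0534, 0.0537, 0.0547 and 0.128, and 0 to 2 without 1 pig. Under pooled oil there was 1 in place of 2 after either GC correction, 3 by DESeq2 and with all 24 livers, where GSDMD passed, and 1 to 3 without 1 pig, TRAF2 being lost without C-71, C-100, C-110, P-67, P-75, P-95, P-107, OO-102, OO-130 or OP-79 and GSDMD gained without C-80, P-134, P-138, OO-74 or OO-97. A fold change of at least 2 left 4 of the 7 members called between the tissues.

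Genes called went from 0 to 5 by DESeq2 in the ileum. Across the 4 diets they went from 506 to 803 (GC correction), 1788 (DESeq2), 1113 (24 livers), 798 (24 livers corrected) and 297 to 1450 without 1 pig. For PFA against control they went from 0 to 37 (DESeq2). For OO + PFA against OO they went from 0 to 11 (GC correction), 31 (DESeq2), 1 and 2 (24 livers, uncorrected and corrected) and 0 to 7 without 1 pig. For OO against control they went from 375 to 153 (fold of at least 2), 810, 1087, 224 (24 livers), 194 (2 diets alone) and 167 to 1325 without 1 pig. For OO + PFA against PFA they went from 218 to 133 (fold of at least 2), 688 (DESeq2), 1225, 419 (24 livers, uncorrected and corrected), 963 (2 diets alone) and 103 to 411 without 1 pig. For pooled oil they went from 1630 to 469 (fold of at least 2), 1065 (GC correction) and 837 to 2672 without 1 pig. For the interaction they went from 0 to 2 (size factors, no filter), 6 (GC correction), 161 (DESeq2) and 0 to 5 without 1 pig, and between the tissues from 11699 to 6808 (fold of at least 2). Of the genes called under pooled oil 1238 were higher and 392 lower. Among genes with a GC value these were 1019 and 323 without the correction, against 536 and 529 after it. With OO against control these were 190 and 185, against 185 and 274 with DESeq2's size factors.

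Values that turned sign after the GC correction were TRAF6 (-0.0029) and IL18 (-0.068) in the ileum, MYD88 with PFA in the liver (0.067, and 0.069 with 24 livers), TLR4 with OO + PFA against OO (0.0067), TLR4 (0.10), MYD88 (-0.18, and -0.24 with 24 livers) and IL18 (0.051, and 0.062) with OO + PFA against PFA, IL18 (0.070, and 0.075) and, with 24 livers, MYD88 (-0.016) under pooled oil, TRAF6 in the interaction (0.10, and 0.069), TLR2 between the tissues (-0.014) and r of TLR4 between the tissues (-0.011). Others were MYD88 with PFA without a filter (0.0036) or with the title term (0.0077), TLR5 with OO + PFA against OO with the title term (0.11), CASP1 under pooled oil with size factors (-0.017), DESeq2 (-0.019) or the title term (-0.0012), TLR5 in the interaction with 24 livers (-0.032), and TLR4 between the tissues with at least 10 counts in every library (0.036).

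Without 1 pig, the sign turned for IL18 in the ileum (-0.15 to 0.21), and in the liver for MYD88 (-0.082 to 0.032) and CASP1 (-0.026 to 0.63) with PFA, TLR2 (-0.021 to 0.28), TLR4 (-0.20 to 0.037) and IL18 (-0.21 to 0.19) with OO + PFA against OO, IL18 with OO against control (-0.033 to 0.15), MYD88 (-0.077 to 0.18) and TLR4 (-0.16 to 0.085) with OO + PFA against PFA, CASP1 (-0.071 to 0.27) and IL18 (-0.19 to 0.0057) under pooled oil, and TLR2 (-0.27 to 0.023), TLR5 (-0.14 to 0.28), TRAF6 (-0.14 to 0.0032) and GSDMD (-0.031 to 0.48) in the interaction. It turned for TLR4 (-0.15 to 0.036) and GSDMD (-0.088 to 0.45) between the tissues and for TLR4 (-0.013 to 0.36), TLR5 (-0.30 to 0.32), CASP1 (-0.13 to 0.55) and IL18 (-0.40 to 0.017) in the PFA effect of ileum against liver.

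With the pig as a block, the same 7 members were called between the tissues, and no call of a member changed. TLR4 turned sign between the tissues (0.041) and in the PFA effect (-0.027, and -0.031 with the GC correction), and TLR2 between the tissues with the block and the GC correction (-0.031), where GSDMD was called at 0.63, as without the block.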
